A study of Mus musculus with 11 samples.

Results

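Fatty acid uptake and glycerol handling are described here through 10 genes, which were chosen by symbol from the 22600 genes of the merged raw count table and which were all measured: Lpl, Gpihbp1, Vldlr, Cd36, Slc27a1, Fabp4, Fabp5, Acsl1, Aqp7 and Gpd1. The RNA came from whole distal tibiae, frozen and powdered with their marrow, of 4 Control and 7 BMAd-DTA animals, and each mouse gave 1 library. All mice were of the C57BL6/SJL strain, 24 weeks old and fed ad libitum. Control mice have the genotype BMAd-WT, and in BMAd-DTA mice the diphtheria toxin A chain (DTA) is made in bone marrow adipocytes (BMAds). The DTA sits at the ROSA locus behind a floxed STOP cassette, and the Cre that removes the cassette is encoded with endogenous Adipoq and is turned on by a flippase driven by Osterix. According to the study's methods all mice, controls included, carried both the flippase and the Cre cassette, which by itself lowers circulating adiponectin. The Cre acts in more BMAds as mice age and reaches only a small subset of the adipogenic precursors of the marrow.

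Triglyceride reaches tissues inside lipoproteins and cannot cross a membrane as such. Lipoprotein lipase (Lpl) splits it on the wall of capillaries, where Gpihbp1 holds the enzyme, and the freed fatty acids enter cells with the help of Cd36 and fatty acid transport proteins, are carried by fatty acid binding proteins and are coupled to coenzyme A by acyl-CoA synthetases. Adipocytes store them on a backbone of glycerol 3-phosphate, which Gpd1 makes from a sugar intermediate, and after lipolysis release glycerol through the channel Aqp7. Many of these genes are also expressed outside adipocytes, in endothelium, muscle and macrophages, so that whole bone RNA holds transcripts from several cell types.

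Libraries held 16969529 to 18637663 assigned counts in controls and 17128711 to 18432805 in BMAd-DTA mice. The 11 markers of adipocytes had negative log2 fold changes throughout (median -1.28). Their summed level overlapped between the groups (398 to 1027 CPM, counts scaled to library size, in controls and 83.5 to 534 in BMAd-DTA). For 4 of the 11 (Plin1, Retn, Adrb3 and Acvr1c) the CPM ranges of the groups were apart, with lower values in BMAd-DTA. Such a separation was found for 1.04% of all genes tested. By edgeR's quasi-likelihood test 8 of the 11 were lower at an unadjusted p of 0.05, against 8.53% of all genes. Retn alone passed an adjusted p of 0.05 in edgeR (0.0205), and 3 of the 11 did in DESeq2. BMAd-DTA replicates 2, 3 and 7 stood apart with the lowest adipocyte scores. Adipoq, named as the driver of the Cre, ranged from 28.5 to 209 CPM in controls and from 7.19 to 115 in BMAd-DTA, so Control replicate 4 lay inside the BMAd-DTA range. Skeletal muscle transcripts varied widely between bones of the same group, with summed levels of 18.4 to 1354 CPM in controls and 19.5 to 1060 in BMAd-DTA. All 7 erythroid markers tested were lower (median log2 fold change -0.56) and all 7 osteoblast and osteocyte markers higher (1.12) in BMAd-DTA mice. Xist was counted 13810 to 20260 times in each library and 4 Y-linked genes together at most 1 time, whereas the legends of the study speak of male mice at these ages. The labels name no sex.

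The level of 7 of the 10 genes was lower and that of 3 was higher in BMAd-DTA mice on the mean, and neither edgeR's quasi-likelihood test nor DESeq2 put any of them past an adjusted p of 0.05. The glycerol genes Aqp7 and Gpd1 had the lowest fold changes (log2 -0.96 ± 0.42 and -0.66 ± 0.26, SE, n = 4 and 7), followed by Lpl (-0.54 ± 0.26), Fabp4 (-0.44 ± 0.23) and Acsl1 (-0.33 ± 0.11). Cd36 (-0.21 ± 0.22), Slc27a1 (-0.06 ± 0.20) and Gpihbp1 (0.09 ± 0.21) lay within 1 standard error of 0, and Fabp5 (0.47 ± 0.24) and Vldlr (0.48 ± 0.31) had positive values. Over the whole table the same threshold called 0.0788% of 16496 genes tested in edgeR, or 13 genes, and 5.42% in DESeq2. At an unadjusted p of 0.05, edgeR picked 3 of the 10 genes, Acsl1, Aqp7 and Gpd1, all of them lower, and 8.53% of all genes were lower and 7.89% higher at that level. The 3 lower genes became 1 without Control replicate 2 or Control replicate 3 and 5 without BMAd-DTA replicate 5. At that level Vldlr was also higher when Control replicate 3 was left out, and so was Fabp5 when BMAd-DTA replicate 1 or 6 was. The median log2 fold change was -0.27 over the 10 genes and 0.0018 over all genes tested, of which 49.6% were lower. In RNA from whole bone, fewer cells of a type and less RNA per cell cannot be told apart.

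**Figure D1:**
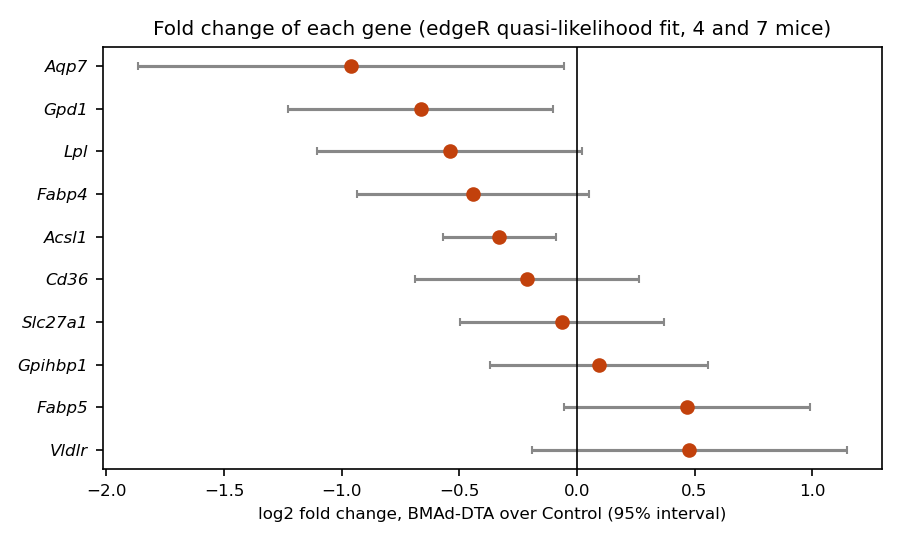
Log2 fold change of BMAd-DTA over Control on the horizontal axis for each of the 10 genes on the vertical axis, with points for the edgeR estimate and bars for its 95% interval (4 and 7 mice). The intervals of Aqp7, Gpd1 and Acsl1 lie below 0, while those of the other 7 genes include 0.

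The enzyme and its anchor at the capillary wall come first. Lpl, on chromosome 8 (68880491 to 68907448, plus strand, GRCm38, as all positions below), measured 417, 451, 348 and 355 CPM in controls 1 to 4 and 141 at the lowest, 328 at the median and 369 at the highest in BMAd-DTA. BMAd-DTA replicates 2, 3 and 7, at 141, 197 and 149 CPM, were far below every control, whereas the others lay between 328 and 369. The mean was 393 ± 49.6 CPM (SD, n = 4) against 270 ± 103 (SD, n = 7), and the 95% interval of the log2 fold change ran from -1.10 to 0.02 (edgeR adjusted p = 0.322). The coefficient of variation of Lpl was 12.6% in controls and 38.2% in BMAd-DTA.

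Gpihbp1, which carries Lpl across the endothelium and binds it on the luminal side (chromosome 15, 75596628 to 75599481, plus strand), measured 19.2, 17.3, 31.2 and 20.5 CPM in controls and 13.1, 26.5 and 30.1 CPM as lowest, median and highest value in BMAd-DTA. The groups overlapped almost wholly, and only BMAd-DTA replicate 7 was below every control. The 95% interval of its log2 fold change, -0.37 to 0.56, held both a moderate decrease and a moderate increase (adjusted p = 0.877). Without Control replicate 2 the estimate was -0.0062. At this number of mice the anchor of the lipase had no detectable difference, and a difference between the fold changes of Lpl and Gpihbp1 was not tested.

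The genes whose products bring fatty acids or whole lipoproteins into cells gave no difference past the threshold. Cd36, a scavenger receptor that takes up long-chain fatty acids (chromosome 5, 17781690 to 17888801, minus strand), measured 158, 178, 209 and 122 CPM in controls and 84.0, 139 and 209 CPM as lowest, median and highest value in BMAd-DTA. The highest mice of the groups were level, and BMAd-DTA replicates 2, 3 and 7 were again the lowest of their group. The mean was 167 ± 36.6 CPM (SD, n = 4) against 144 ± 45.4 (SD, n = 7), with an edgeR adjusted p of 0.694. The log2 fold change of -0.21 was -0.08 without Control replicate 3 and -0.12 without BMAd-DTA replicate 2, and -0.34 without Control replicate 4 and -0.33 without BMAd-DTA replicate 5.

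Slc27a1, a fatty acid transport protein with acyl-CoA synthetase activity (chromosome 8, 71568882 to 71587302, plus strand), measured 32.8, 39.2, 66.0 and 33.1 CPM in controls and 30.1, 43.4 and 52.6 CPM as lowest, median and highest value in BMAd-DTA. Control replicate 3 was the highest of all mice, and without it the log2 fold change was 0.23 instead of -0.06. It was 0.02 with the skeletal muscle score as a covariate, so the direction of Slc27a1 depended on the setting.

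Vldlr, a receptor that binds triglyceride-rich lipoproteins and helps Lpl at the vessel wall (chromosome 19, 27216484 to 27254231, plus strand), measured 19.2, 27.0, 50.3 and 33.7 CPM in controls and 25.1, 37.7 and 76.8 CPM as lowest, median and highest value in BMAd-DTA. BMAd-DTA replicates 2 and 3, at 65.4 and 76.8 CPM, were above every control, and these were mice in which Lpl was low. In BMAd-DTA replicate 7, where Lpl was low as well, Vldlr was at 43.6 CPM and within the control range. The difference of the means, 32.6 ± 13.2 against 45.3 ± 18.8 CPM (SD, n = 4 and 7), was within the spread of the mice (log2 fold change 95% interval -0.19 to 1.15, edgeR adjusted p = 0.476). The log2 fold change of 0.48 was 0.77 without Control replicate 3, 0.29 without Control replicate 1 and 0.30 without BMAd-DTA replicate 3.

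The fatty acid binding proteins, small carriers of fatty acids in the cytosol, had opposite signs. Fabp4, the form of adipocytes, macrophages and capillary endothelium (chromosome 3, 10204088 to 10208576, minus strand), measured 291, 318, 445 and 275 CPM in controls and 147, 218 and 366 CPM as lowest, median and highest value in BMAd-DTA. BMAd-DTA replicates 1, 2, 3 and 7 were below every control, and the other 3 were within the control range. The mean was 332 ± 77.0 CPM (SD, n = 4) against 244 ± 81.7 (SD, n = 7), with an edgeR adjusted p of 0.352. Without Control replicate 3 the log2 fold change was -0.27 in place of -0.44.

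Fabp5, a more widely expressed form that lies on the same chromosome 187480 bases away (10012548 to 10016607, plus strand), measured 14.0, 22.0, 17.5 and 23.5 CPM in controls and 15.3, 27.1 and 43.1 CPM as lowest, median and highest value in BMAd-DTA. Of the BMAd-DTA mice, 5 were above every control. Of all genes tested, 15.5% had 4 or more BMAd-DTA mice above every control, and the share with 5 or more was not counted. The mean was 19.3 ± 4.33 CPM (SD, n = 4) against 26.6 ± 9.03 (SD, n = 7), and the 95% interval of the log2 fold change ran from -0.06 to 0.99 (edgeR adjusted p = 0.354). The estimate was 0.31 without BMAd-DTA replicate 5 and 0.30 with the muscle score as a covariate. Across the 11 mice no relation of Fabp4 with Fabp5 was detected (r = -0.13, rho = -0.12, permutation p = 0.715 and 0.735, adjusted p = 0.767 and 0.770 over 45 pairs of the 10 genes).

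Acsl1, the acyl-CoA synthetase that activates fatty acids for storage in fat and for oxidation in muscle (chromosome 8, 46471037 to 46536051, plus strand), measured 306, 286, 267 and 214 CPM in controls and 167, 212 and 250 CPM as lowest, median and highest value in BMAd-DTA. BMAd-DTA replicates 1, 2, 3 and 7 were below every control, and Control replicate 4 was the lowest control. The mean was 268 ± 39.2 CPM (SD, n = 4) against 213 ± 27.7 (SD, n = 7), 79.6% of the control mean. With the narrowest 95% interval of the 10 genes (log2 -0.57 to -0.09), Acsl1 had the lowest adjusted p, 0.160 in edgeR and 0.0699 in DESeq2, and an exact permutation p of 0.0364 (adjusted over all genes, 0.284). An annotated locus of unknown class, Gm45244, lies on the opposite strand, and 0.119% of the reads over Acsl1 were on that strand.

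The glycerol genes had the lowest fold changes. Aqp7, the aquaglyceroporin through which adipocytes release glycerol (chromosome 4, 41033074 to 41048139, minus strand), measured 4.13, 3.65, 4.37 and 3.68 CPM in controls and 0.401, 2.05 and 3.62 CPM as lowest, median and highest value in BMAd-DTA. All 7 BMAd-DTA mice were below all 4 controls, which among the 10 genes was so for Aqp7 alone, while 1.04% of all genes tested were separated in this direction. The gap was thin, since BMAd-DTA replicates 4 and 5 reached 3.44 and 3.62 CPM, each from 63 counts, and Control replicate 2 had 3.65 CPM from 62 counts. BMAd-DTA replicate 2 had 7 counts, or 10.1% of the control mean. The means were 3.96 ± 0.353 CPM (SD, n = 4) and 2.03 ± 1.22 (SD, n = 7), and the exact permutation p was 0.0333 (0.276 adjusted over all genes, edgeR adjusted p = 0.273). Of the reads over Aqp7, 6.49% were on the strand opposite to the gene.

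Gpd1, the cytosolic dehydrogenase that makes glycerol 3-phosphate (chromosome 15, 99717515 to 99725005, plus strand), measured 96.1, 109, 112 and 71.3 CPM in controls and 35.3, 65.6 and 95.6 CPM as lowest, median and highest value in BMAd-DTA. BMAd-DTA replicates 2, 3 and 7, at 38.6, 38.9 and 35.3 CPM, were at 36.4% to 40.1% of the control mean. In all, 5 BMAd-DTA mice were below every control. The mean was 96.9 ± 18.3 CPM (SD, n = 4) against 61.2 ± 24.0 (SD, n = 7), with an exact permutation p of 0.0394 (0.291 adjusted over all genes) and an edgeR adjusted p of 0.222. The antisense transcript Gm16537 overlaps Gpd1, and 0.594% of the reads over the gene were on that strand. For 5 of the 10 genes (Lpl, Fabp4, Acsl1, Aqp7 and Gpd1) 4 or more BMAd-DTA mice were below every control, which held for 14.4% of all genes tested.

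**Figure D2:**
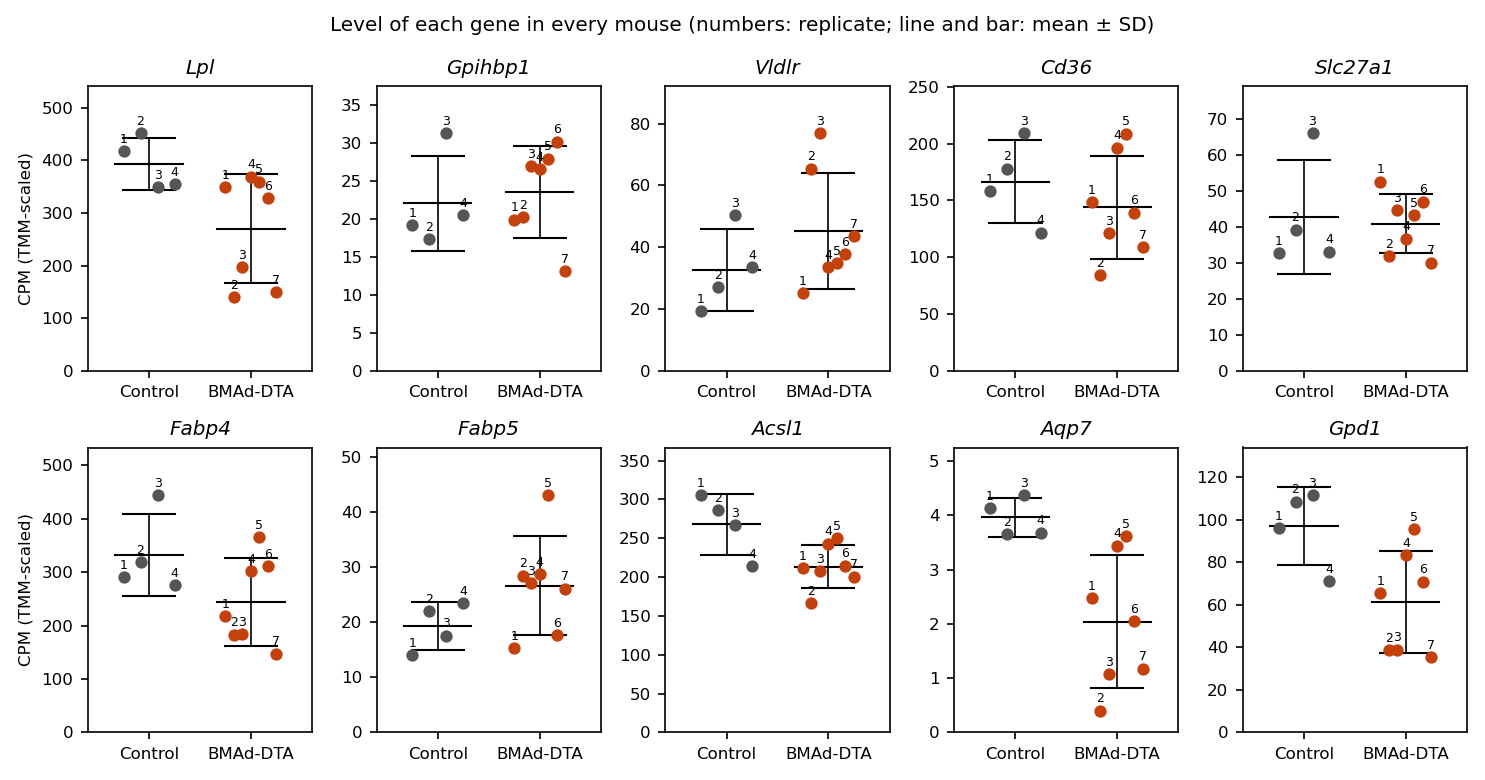
CPM on the vertical axis (linear, from 0) for each of the 10 genes, with 1 point per mouse numbered by replicate, a line for the mean and a bar for the SD of the 4 Control and 7 BMAd-DTA mice. BMAd-DTA replicates 2, 3 and 7 are the lowest for Lpl and Gpd1, and only the panel of Aqp7 has groups that do not overlap (3.65 to 4.37 against 0.401 to 3.62 CPM).

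Promoter windows of RefSeq (GRCm38.p6, 250 bases before to 50 after a start site) covered 5 of the 10 genes, namely Aqp7, Cd36, Acsl1, Slc27a1 and Vldlr. They were searched on both strands for the direct repeat of AGGTCA with 1 base (N) between the copies, the letters to which PPAR-gamma, the main transcription factor of adipocytes, binds with its partner RXR, with at most 2 mismatches in the 12 fixed positions. It was found in 3 of the 10 windows of these genes and in 3.86% of all 32851 windows. The windows of Aqp7 share the bases from 41048087 to 41048212, and the first stretch of Aqp7 below lies in both. The 10 windows are thus not independent, and their share was not tested against that of all windows. The stretches are shown because Aqp7, the gene whose groups did not overlap, has matches, so they were picked with its values known. They are printed on the plus strand with 8 flanking bases, and capitals mark the fixed positions that match the repeat.
Aqp7, chr4:41048172-41048200, plus strand: cccttgtgAGGTCAgAGGTggagttccag
Aqp7, chr4:41048043-41048071, plus strand: gcttctccAGGggAgAGGTCAgtagggca
Cd36, chr5:17835939-17835967, plus strand: atccaagtAaGTCAgAGGcCAgagaacca
A match of letters is a description of these windows and not a binding site, and the windows of Acsl1, Slc27a1 and Vldlr had at best 4 mismatches.

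Per length of their annotated exons, merged over all transcripts, the 10 genes fell into levels that differed widely. For Fabp4 this length, 4489 bases, covers the whole gene from 10204088 to 10208576. FPKM can be too low where the annotated exons are longer than the transcript made, so the order holds for this length only. In controls, Fabp4 had 74.0 ± 17.2 FPKM (CPM divided by exon length in kilobases, SD, n = 4), followed by Cd36 (46.4 ± 10.2), Lpl (37.5 ± 4.74), Gpd1 (32.7 ± 6.20) and Acsl1 (25.6 ± 3.74). Gpihbp1 (8.63 ± 2.44), Slc27a1 (7.33 ± 2.70), Fabp5 (5.40 ± 1.21), Vldlr (3.23 ± 1.31) and Aqp7 (1.40 ± 0.125) were lower on the FPKM scale. The ranges of neighbours in this order overlapped among the controls, except between Fabp4 and Cd36, Acsl1 and Gpihbp1, and Vldlr and Aqp7. So Aqp7, with the lowest fold change, was the least abundant of the 10 genes, and Fabp4 and Cd36, at the top, were still at 54.4 ± 18.2 and 40.1 ± 12.6 FPKM (SD, n = 7) in BMAd-DTA mice.

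The spread among the mice was set beside cell type markers. An adipocyte score, the mean log2 CPM of the 11 markers, was compared with the log2 CPM of each gene across the 11 mice, as 1 of 30 relations with the scores of adipocytes, endothelium and marrow stroma. Because the marker genes and the 10 genes come from the same libraries, they share depth and scaling. Gpd1 had r = 0.97 and rho = 0.96 (permutation p = 2e-05 and 3e-05, both 0.0006 adjusted), and Aqp7 had r = 0.93 and rho = 0.87 (p = 4e-05 and 0.00091, 0.0006 and 0.00682 adjusted). Lpl had r = 0.94 and rho = 0.75 (p = 0.00023 and 0.00983, 0.0015 and 0.0491 adjusted), and Fabp4 had r = 0.90 and rho = 0.85 (p = 0.00025 and 0.00176, 0.0015 and 0.0106 adjusted). Acsl1 had r = 0.88 and rho = 0.96 (p = 0.00024 and 4e-05, 0.0015 and 0.0006 adjusted), and Cd36 had r = 0.84 and rho = 0.88 (p = 0.00101 and 0.0007, 0.00433 and 0.00682 adjusted). Control replicate 3 had the highest score but the lowest Lpl of the controls.

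The other 4 genes had no relation to the adipocyte score past the threshold. Vldlr ran the other way (r = -0.63, rho = -0.47, permutation p = 0.0361 and 0.147, adjusted p = 0.0628 and 0.232), as did Fabp5 (r = -0.42, rho = -0.38, p = 0.198 and 0.247, adjusted p = 0.259 and 0.322). Slc27a1 had r = 0.44 and rho = 0.36 (p = 0.171 and 0.273, adjusted p = 0.234 and 0.342), and Gpihbp1 r = 0.38 and rho = 0.26 (p = 0.253 and 0.436, adjusted p = 0.303 and 0.485). Whether the relations of these 4 genes differ from those of the other 6 was not tested.

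**Figure D3:**
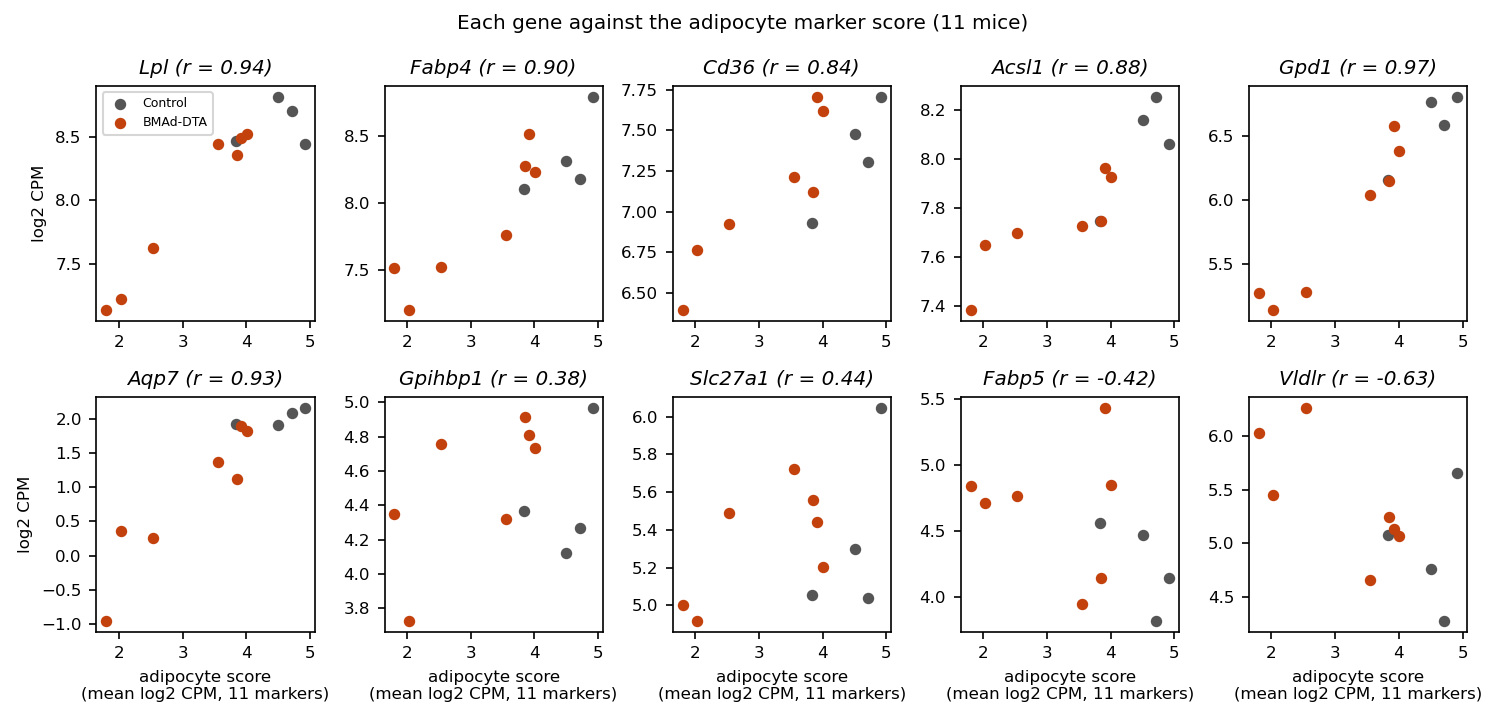
Log2 CPM of each gene on the vertical axis against the adipocyte score (mean log2 CPM of 11 markers) on the horizontal axis, with 1 point per mouse, grey for Control and orange for BMAd-DTA, and Pearson's r over the 11 mice. Gpd1, Lpl, Aqp7, Fabp4, Acsl1 and Cd36 rise along the score (r = 0.84 to 0.97), and Control replicate 4 sits among the BMAd-DTA mice.

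Within the 7 BMAd-DTA mice alone, where the genotype is the same, the relations of Gpd1, Aqp7, Lpl, Fabp4, Acsl1 and Cd36 with the adipocyte score kept their sign. There r was 0.99 for Lpl, 0.96 for Gpd1, 0.93 for Aqp7, 0.91 for Cd36, 0.90 for Fabp4 and 0.86 for Acsl1 (exact permutation p = 0.00198, 0.00238, 0.00337, 0.00198, 0.0165 and 0.000397, adjusted p = 0.0179, 0.0179, 0.0202, 0.0179, 0.0408 and 0.0119). By Spearman's rank correlation they passed as well except for Fabp4 (0.86, adjusted p = 0.0549), and several of these genes also followed the endothelial and stromal scores in these mice, as given with those markers. The 4 controls are too few for such a value. The adipocyte scores of the BMAd-DTA mice left a wide gap. They were 1.81, 2.54 and 2.03 in BMAd-DTA replicates 2, 3 and 7 and 3.56 to 4.01 in the others. The r within BMAd-DTA can therefore largely reflect a contrast of these sets, and relations inside each set were not tested. No pooled correlation was to be given where a gap passed 40% of the range of a score. This rule was applied over all mice only, where the gap was 32.7% of the range. Within BMAd-DTA the same gap lies in a narrower range, so its share is larger there. The r and p within BMAd-DTA are thus a description and do not show a graded relation. Without the 2 mice farthest from the median score, BMAd-DTA replicates 2 and 7, r was 0.95 for Gpd1, 0.89 for Aqp7, 0.83 for Lpl, 0.82 for Fabp4 and 0.82 for Acsl1. It was 0.64 for Cd36 (adjusted p = 0.117), whose relation by r thus rests on these mice. By rho only Gpd1 (0.95) and Acsl1 (0.93) still passed, both at an adjusted permutation p of 0.0096, while Lpl had a rho of 0.55, Fabp4 of 0.75, and Aqp7 and Cd36 of 0.78 (adjusted p = 0.307, 0.0857, 0.0837 and 0.0837).

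In BMAd-DTA replicates 2, 3 and 7 the members kept different shares of the control mean. Plin1, which coats lipid droplets, was at 11.1%, 18.3% and 13.1% of its control mean in these mice, and the adipokine Cfd, the most abundant of the adipocyte markers, at 10.03%, 20.1% and 10.1%. Both are among the 11 markers of the score by which these mice stood apart. Their low shares are thus partly built into the choice of mice and are no independent measure beside the members. Aqp7 was at 10.1%, 27.2% and 29.6%. Lpl was at 35.8%, 50.1% and 38.0%, and Fabp4 at 55.0%, 55.5% and 44.4%. Cd36 was at 50.4%, 72.8% and 65.3%, and Acsl1 at 62.2%, 77.4% and 74.7%. Over all 11 adipocyte markers the lowest BMAd-DTA mouse was at 0% (Adrb3) to 25.2% (Retn) of the control mean.

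**Figure D4:**
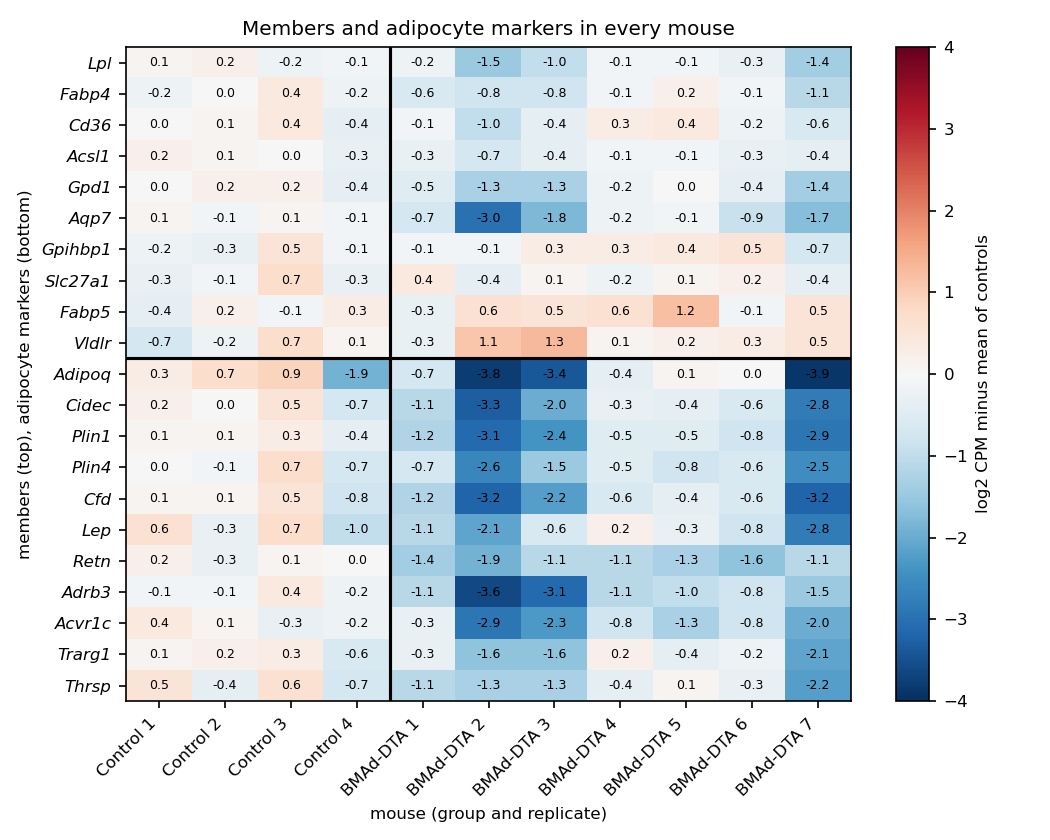
Log2 CPM minus the mean of the 4 controls (colour and number) for the 10 genes above the line and the 11 adipocyte markers below it, with 1 column per mouse. BMAd-DTA replicates 2, 3 and 7 are the darkest columns for most markers and for Aqp7, Lpl and Gpd1, while Fabp5 and Vldlr are above 0 in these mice.

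Of the 45 pairs among the 10 genes, 17 were related across the 11 mice by r at an adjusted p of 0.05. Among Lpl, Cd36, Fabp4, Acsl1, Aqp7 and Gpd1, all 15 pairs were, from r = 0.71 (Fabp4 with Acsl1) to r = 0.93 (Fabp4 with Gpd1), and 11 of them were within the BMAd-DTA mice. These 6 genes are the ones that passed with the adipocyte score in the same mice. Genes that follow 1 score tend to follow each other, so the count of 15 pairs is no separate result. The remaining pairs were of Vldlr with Lpl (r = -0.75, rho = -0.82, permutation p = 0.00823 and 0.00316, adjusted p = 0.0247 and 0.0144) and with Aqp7 (r = -0.69, rho = -0.53, p = 0.0177 and 0.100, adjusted p = 0.0469 and 0.206). For Lpl with Gpihbp1 no relation was detected (r = 0.31, rho = -0.15, p = 0.361 and 0.652, adjusted p = 0.478 and 0.753), and the sign depended on the mice, with r = 0.63 within BMAd-DTA and -0.48 without the 2 mice farthest from the median of Lpl. When the 2 mice farthest from the median of the first gene of a pair were left out, 8 of the 45 pairs stayed past the threshold by r, 7 of them among the 6 genes named first. By rho, Acsl1 with Gpd1 alone passed there (0.97, adjusted permutation p = 0.0054). Over all 11 mice, Lpl with Cd36, Fabp4 and Aqp7, and Fabp4 with Aqp7, did not pass by rho (adjusted permutation p = 0.0718, 0.163, 0.0572 and 0.0657).

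The genes most like each member over the 11 mice were sought among the 12973 tested genes that averaged 50 counts or more. Plin1 was among the top 3 for Lpl (r = 0.96), Aqp7 (r = 0.95) and Gpd1 (r = 0.98), and Negr1, a cell adhesion protein, for Lpl (r = 0.98) and Aqp7 (r = 0.95). Lpl was also close to Plpp3, a lipid phosphate phosphatase (r = 0.98), and Aqp7 to Klhdc7a (r = 0.96). Gpd1 was closest to Adcyap1r1 (r = 0.99), the receptor of the neuropeptide PACAP, and to Aoc3 (r = 0.98), an amine oxidase. Acsl1 was closest to Mgll, the monoacylglycerol lipase that completes lipolysis (r = 0.99), and then to Pabpc1 and Azin1 (r = 0.96 and 0.95).

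Fabp4 was most like Rasd1, Smoc1 and Il34 (r = 0.98, 0.96 and 0.96), and Cd36 most like Me1, the malic enzyme that supplies reducing power for fatty acid synthesis, Cyb5a and Mrap (r = 0.92, 0.91 and 0.91). The nearest genes of Vldlr were Id4, S1pr4 and Rerg (r = 0.95, 0.94 and 0.91), and those of Slc27a1 were Ccdc85c, Cib2 and Adam33 (r = 0.92, 0.91 and 0.90). Gpihbp1 was most like Gm1673, Scand1 and Atp5md (r = 0.93, 0.92 and 0.91), and Fabp5 most like Edrf1, Ube2e2 and Gm12258 (r = 0.87, 0.86 and 0.86). As the highest of 12973 values for each gene they are given as a description.

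Of the same pathway, 38 other genes were in the table from the lists used and 37 of them were tested. None passed the adjusted threshold in edgeR and 4 did in DESeq2, which called 5.42% of all genes it tested. Of the 37, 12 were higher and 25 lower (67.6%, against 49.6% of all genes tested). Their median was -0.088 on the log2 scale. At an unadjusted p of 0.05 in edgeR, 1 was higher and 8 were lower, against 7.89% and 8.53% of all genes tested. Among the regulators and kin of the lipase, Pcsk6, a proprotein convertase that can cleave lipases, was higher in every BMAd-DTA mouse than in every control (57.6 to 78.5 CPM against 81.2 to 129), with a log2 fold change of 0.60 ± 0.12 (SE), an adjusted p of 0.0675 in edgeR and 0.00066 in DESeq2. Groups were separated in this direction for 1.78% of all genes tested. Lipg, the endothelial lipase, had -0.79 ± 0.30 on that scale, at an adjusted p of 0.1995, and -0.37 without Control replicate 1. Of the lipoprotein receptors, Lrp8 had -0.16 ± 0.10 and Lrp1 0.05 ± 0.10, the latter with a negative value without Control replicate 1.

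In the list of fatty acid entry, binding and activation 13 of 15 genes tested were lower, beside 49.6% of all genes tested. The log2 value of Acsl6 was -0.96 ± 0.27, with an adjusted p of 0.0205 in DESeq2 and above 0.05 in edgeR, and that of Cav1, the coat protein of caveolae, was -0.44 ± 0.13 (0.119 and 0.0313). The other acyl-CoA synthetases Acsl5 (-0.26 ± 0.09) and Acsl4 (-0.19 ± 0.07) were lower at an unadjusted p of 0.0134 each, and Fabp3, the form of muscle, had 0.57 ± 0.41. In the glycerol list 6 of 10 genes were lower. Pck1, which feeds glycerol 3-phosphate synthesis in fat, was at -0.98 ± 0.37 (edgeR adjusted p = 0.209) and Gk, the glycerol kinase listed as Gyk, -0.60 ± 0.17 (0.106 in edgeR and 0.0182 in DESeq2). Aqp9, another aquaglyceroporin, had -0.31 ± 0.13, and Aqp3 0.48 ± 0.54. Without Control replicate 1 the value was -0.38 for Gk and -0.16 for Aqp9.

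**Figure D5:**
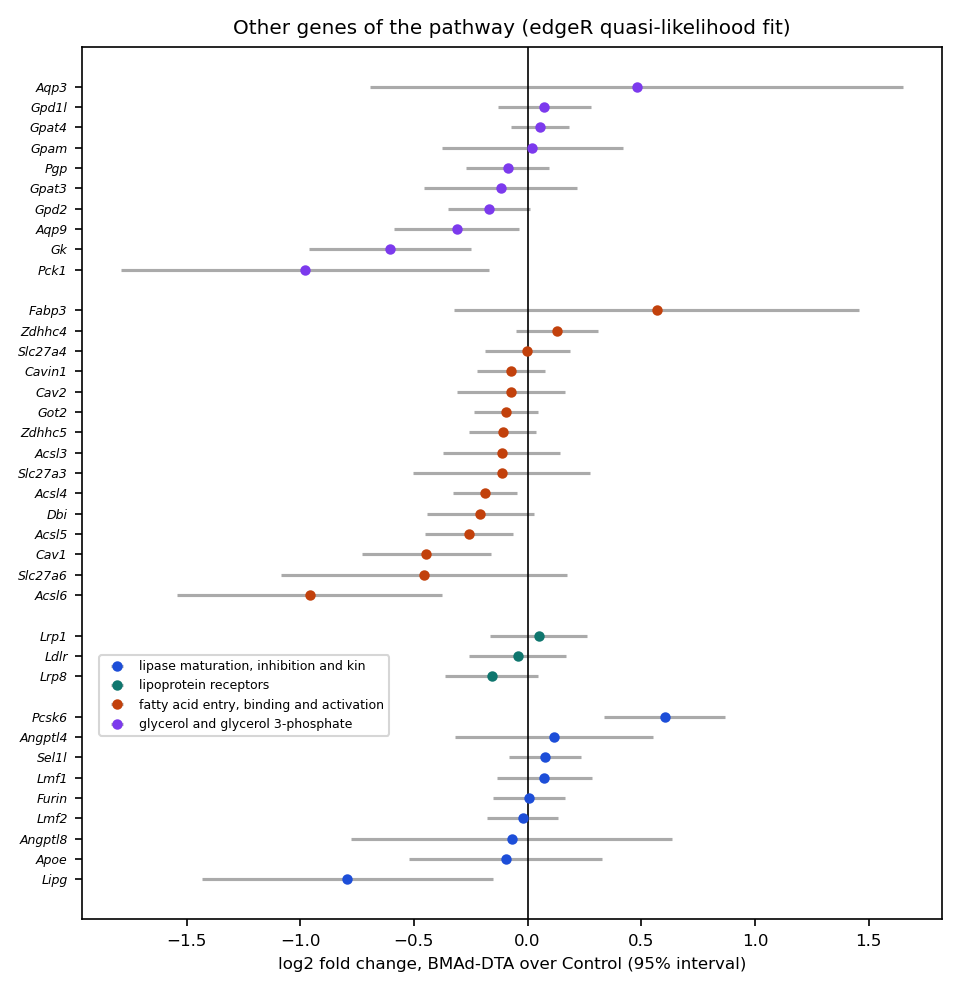
Log2 fold change of BMAd-DTA over Control (edgeR, 4 and 7 mice) on the horizontal axis for the 37 other pathway genes on the vertical axis, coloured by list, with bars for the 95% interval. Pcsk6 is the gene with the clearest positive value (0.60), while Pck1, Acsl6, Lipg and Gk have the most negative ones.

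Markers of other cell types that express these genes were set beside the values. Of 11 endothelial markers tested, 8 were lower and 3 higher, from -0.23 (Tek) to 0.10 (Ramp2), with a median of -0.083, and none had an unadjusted p under 0.05 in edgeR. Their summed level was 819 to 886 CPM in controls and 646 to 920 in BMAd-DTA mice. The endothelial score was related to Lpl (r = 0.86), Fabp4 (r = 0.85), Gpd1 (r = 0.85), Cd36 (r = 0.77) and Aqp7 (r = 0.72) across the 11 mice, with permutation p of 0.00265, 0.00074, 0.0016, 0.00463 and 0.0124 and adjusted p of 0.00883, 0.0037, 0.006, 0.0139 and 0.0338, but rho was past the threshold for none (0.55, 0.68, 0.59, 0.65 and 0.47, permutation p of 0.0883, 0.0253, 0.0615, 0.0350 and 0.147, adjusted p from 0.0949 to 0.232). Without BMAd-DTA replicates 2 and 7 r fell to between 0.51 and 0.67 and passed for none, so these relations rest on those mice. For Gpihbp1, the endothelial member, r was 0.65 and rho 0.45 (permutation p = 0.0277 and 0.172, adjusted p = 0.0628 and 0.258), and r without BMAd-DTA replicates 2 and 7 was 0.28. Within the 7 BMAd-DTA mice r with the endothelial score passed for Lpl (0.94), Fabp4 (0.93), Gpd1 (0.92) and Gpihbp1 (0.80), with exact permutation p of 0.00933, 0.00516, 0.00556 and 0.0131 and adjusted p of 0.0280, 0.0225, 0.0225 and 0.0357. By rho (0.75, 0.89, 0.86 and 0.75) it passed for Fabp4 alone (exact permutation p = 0.0663, 0.0123, 0.0238 and 0.0663, adjusted p = 0.0461 for Fabp4). The part of endothelium in the result was not tested.

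All 12 markers of skeletal muscle were lower on the mean in BMAd-DTA, by a median of -0.90 in log2, from -1.76 (Myh1) to -0.22 (Myh2), and none had an unadjusted p under 0.05 in edgeR. The mice fell into separate clusters on the muscle score, 7 above and 4 below a gap of 49.2% of its range, so no pooled correlation is given. Among the 7 libraries above the gap r with the 10 genes lay between -0.35 (Fabp5) and 0.44 (Vldlr), none of them past the threshold (exact permutation, lowest unadjusted p = 0.326). With the muscle score as a covariate none of the 10 genes passed the adjusted threshold, and 1 in place of 3 was lower at an unadjusted p of 0.05.

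Of 9 markers of marrow stroma 5 were higher and 4 lower, from Lepr (-0.48) to Pdgfra (0.37), and the median was 0.017. The stromal score was related by r to none of the 10 genes past the threshold across the 11 mice (highest r = 0.64, Gpd1, rho = 0.54, permutation p = 0.0307 and 0.0942, adjusted p = 0.0628 and 0.188). This depended on the mice. Without the 2 mice farthest from the median score, Control replicate 1 and BMAd-DTA replicate 3, r passed for Lpl (0.96), Aqp7 (0.95), Gpd1 (0.90), Acsl1 (0.85), Cd36 (0.84) and Fabp4 (0.80). By rho Lpl alone passed without them (0.90, adjusted permutation p = 0.0207). Within the BMAd-DTA mice the stromal score was related by r to Gpd1 (r = 0.90), Vldlr (-0.89), Aqp7 (0.83) and Lpl (0.81), at exact permutation p of 0.00675, 0.00655, 0.0177 and 0.0204 and adjusted p of 0.0225, 0.0225, 0.0408 and 0.0438. By rho Aqp7 (0.96) and Cd36 (0.89) passed there, at exact permutation p of 0.00278 and 0.0123 and adjusted p of 0.0278 and 0.0461. Gpd1 (0.82), Vldlr (-0.86) and Lpl (0.86) did not pass by rho (adjusted permutation p = 0.0683, 0.0549 and 0.0549). Of the 11 macrophage markers, macrophages also expressing Cd36, Lpl and Fabp4, 8 were lower and 3 higher with a median of -0.12. The medians were -0.075 for 10 neutrophil markers and -0.15 for 6 megakaryocyte markers. The part of these cells, and of the lower erythroid and higher osteoblast transcripts, in the values of the 10 genes was not tested.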

How the data were processed

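RNA of 11 distal tibiae was sequenced as strand-specific paired reads. The authors checked the reads with FastQC 0.11.9, aligned them to mm10 with STAR and deposited whole-number read counts per gene, without normalization, per library and merged into 1 table. The annotation release is not given in the sources used here. STAR leaves out reads that map to several places. Transcript windows of 100 bases were compared with other genes on both strands. Of these, 2.19% for Fabp5 and 0.347% for Lpl were shared with other genes, so their counts are less certain. For Acsl1 8.45% and for Gpd1 6.22% were shared, each with 1 other gene. Each of them also overlaps 1 gene on the opposite strand, Gm45244 and Gm16537. Whether their shared windows lie at the same place or at several was not tested.

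The test of the merged counts was that of edgeR 4.0.16 under R 4.3.3 (TMM scaling after filterByExpr, glmQLFit and glmQLFTest, two-sided, Benjamini-Hochberg adjustment over 16496 genes), with no covariate, and 1 library per mouse. CPM are TMM-scaled, and log2 CPM used a prior count of 2. FPKM divide CPM by the length of a gene's annotated exons in GENCODE M21, merged over its transcripts. Intervals of fold changes are fold change ± t quantile × SE. Exact permutation tests ran over all 330 splits of the mice (smallest p 0.00303), and those of correlations over 100000 resamples for 11 mice, two-sided. DESeq2 1.42.0 and limma 3.58.1 served as alternatives, as did other scalings and filters and leaving out each mouse. The scripts were checked on simulated data. Libraries of a group differed beyond sampling noise. Depth bears most on Aqp7, with a mean of 48.5 counts.

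The 10 genes, the pathway lists and the markers were chosen with earlier results of these data known. Named are the 10 genes, pathway genes with an unadjusted p under 0.05 or at the end of their list, the extremes of marker lists and the 3 nearest genes of each member. Replicate numbers follow the order of the samples. The p-values set a group difference or a correlation against the spread between mice.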

Additional observations from a re-analysis of the deposited data

Results flagged for a closer look

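In none of the 10 genes did a mouse stand apart from its group by the gap to the nearest mouse relative to the range of the group. Among the 38 groups of values looked at (the 10 genes and 9 marker scores in each genotype) this gap was too wide for 3 marker scores. Chance gives about 1 in 20 such groups. The marrow stroma score of Control replicate 1 was 6.42 (mean log2 CPM), with the next control at 6.76. The erythroid score of BMAd-DTA replicate 5 was 8.88 and the next mouse of the group was at 8.44, and its neutrophil score was 9.67 with the next at 9.95. BMAd-DTA replicate 5 was also the highest mouse for Fabp5.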

How the results depend on the processing

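No paired analysis was possible because the labels give the mice no replicate numbers shared between the groups. In all 22 alternatives none of the 10 genes passed the adjusted threshold, and 217 of 220 refits kept the direction. Reversed values were a log2 fold change of -0.0062 for Gpihbp1 without Control replicate 2 (-0.0062 to 0.31 over all mice left out), of 0.023 for Slc27a1 with the muscle covariate and 0.23 without Control replicate 3 (-0.17 to 0.23), and, for Lrp1, -0.031 without Control replicate 1 (-0.031 to 0.12). The 13 genes called over the table became 845 with DESeq2, 20 with limma-voom, 238 with sample weights, 32 with the robust fit, 20 with RLE scaling and 3 with the muscle covariate, and 0 to 292 when a mouse was left out (292 without Control replicate 3, 89 without Control replicate 4, 8 and 3 without BMAd-DTA replicates 3 and 4, and 0 without Control replicate 1 or 2 or BMAd-DTA replicate 1 or 6). The pathway genes called, 0 in edgeR, were 4 with DESeq2 (Pcsk6, Gk, Acsl6 and Cav1), 1 with sample weights and 0 to 2 when a mouse was left out, with 2 (Pcsk6 and Gk) without Control replicate 3. The cause was not tested.

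Correlations used a prior count of 2, and with 0.5 none changed sides. Without the 2 mice farthest from the median score, the adipocyte relation of Cd36 (0.64) and the endothelial relations of Lpl (0.59), Cd36 (0.63), Fabp4 (0.67), Aqp7 (0.51) and Gpd1 (0.66) no longer passed, and the adipocyte relation of Gpihbp1 became -0.15. Without Control replicate 1 and BMAd-DTA replicate 3, relations with the stroma score passed for Lpl (0.96), Aqp7 (0.95), Gpd1 (0.90), Acsl1 (0.85), Cd36 (0.84) and Fabp4 (0.80), and that of Fabp5 became -0.013.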
